A study of Mus musculus with 2 samples.

Results

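The genes described here encode the proteins of the cytosolic ribosome. They are the 86 rows of the deposited gene tables that GENCODE M21 annotates as protein-coding and whose symbol is Rpsa or begins with Rpl, Rps or Rplp and a digit, without the Rps6k kinases and symbols containing -ps, out of 55536 genes, of which 22028 are protein-coding. By their known products, 77 are core proteins of the ribosome, 46 in the large (60S) and 31 in the small (40S) subunit, 8 are paralogues of a core gene, and 1, Rps19bp1, encodes a binding partner and is no ribosomal protein. The RNA, selected for its poly(A) tail, came from a male mouse aged 4 months, from regulatory T cells labelled as activated, a class of T cell that depends on Foxp3 and restrains immune responses. The strain label, Foxp3CreERT2 x Rosa26YFP, names an inducible Cre expressed from Foxp3 and a fluorescent reporter at Rosa26, and the labels trace the primary cells to a bone marrow haematopoietic cell. Neither the sort nor the activating treatment is described in the labels. There are 2 libraries, technical replicates 1 and 2 of 1 biological replicate, so all values are of 1 group, each mean ± SD is over n = 2 technical libraries, and p-values do not bear on animals.

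A ribosome holds most of its proteins once, and cells keep their amounts matched partly by degrading the copies that find no place in a subunit. Ribosomal protein mRNAs are among the most abundant of growing cells. Many of them begin with a run of pyrimidines at the 5′ end, the TOP motif, through which mTOR signalling controls their translation. Mammalian genomes also carry many processed pseudogenes of these genes, which are intronless copies of the mRNA at other places, and a few functional paralogues, some with a tissue-restricted pattern. T cells raise ribosome production when they are activated.

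The libraries held 15076048 and 14635787 rounded gene reads. Foxp3 had 23.8 TPM in library 1 and 20.9 TPM in library 2 (TPM, a level per length, is scaled to the same total in each library). Markers of other cells were low but not all absent. Cd14 (monocytes) and Ncr1 (natural killer cells) had 0 reads in both libraries, while Lyz2 of myeloid cells had 9.66 and 42 reads and Klrb1c of natural killer cells had 23 and 36. Cd79a of B cells had 22 and 28 reads, and Cd8b1 of CD8 T cells, the highest of these, had 177 and 248 reads or 9.94 and 14.8 TPM. Cd8a, the other CD8 T cell marker examined, had only 38 and 20 reads or 1.43 and 0.79 TPM. Hbb-bs of erythroid cells had 6.27 and 4.74 TPM. Their part in the levels of the ribosomal protein genes was not tested. As the RNA is of a bulk sample, fewer cells of a type and less RNA per cell cannot be told apart. Length minus effective length, the number of start positions open to a read, was 49 bases in 100% of the 139568 transcripts of 100 bases or more. The reads were thus treated as 50 bases long, and a 50-base stretch shared by several genes cannot place a read.

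Nearly the whole set was expressed. Of the 86 genes, 83 reached 1 TPM in both libraries, as did 46.2% of protein-coding genes, and 79 reached 100 TPM. The 3 below 1 TPM were the paralogues Rpl10l, Rpl3l and Rpl39l. At 1000 TPM or more in both libraries stood 52 of the 86 genes, and 109 of all 22028 protein-coding genes. The set held 10 of the 20 protein-coding genes of highest mean TPM and 49 of the first 100. Its share of gene reads was 7.73% for library 1 and 7.23% for library 2, and its share of TPM 16.4% and 15.7%. The core median was 1504 TPM, with quartiles at 847 and 2587 TPM, against a median of 0.593 TPM over all protein-coding genes.

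Core genes were far from equal in their own rows. Rps19, a protein of the small subunit head, was the highest at 8464 TPM in library 1 and 8599 TPM in library 2. Also among the 10 highest were the large subunit proteins Rpl32 (6258 ± 88.9 TPM), Rpl13a (6043 ± 138 TPM), Rpl41 (5807 ± 132 TPM) and Rpl36 (3585 ± 136 TPM). So were the small subunit proteins Rps27 (5656 ± 362 TPM), Rps14 (5400 ± 170 TPM), and Rps18 (5006 ± 62.6 TPM). The 5 lowest were Rpl12 (33.9 ± 8.70 TPM), Rpl5 (64.0 ± 3.67 TPM), Rps12 (86.3 ± 1.77 TPM), Rpl27a (246 ± 7.61 TPM) and Rpl28 (350 ± 2.50 TPM). Highest and lowest differed 252-fold, and the SD over the core of log2(mean TPM + 1) was 1.44. Between libraries the median absolute log2 ratio of TPM was 0.08, so the differences among most genes were much larger than the spread between technical libraries. Within 2-fold of the core median lay 49 of the 77 genes.

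**Figure D1:**
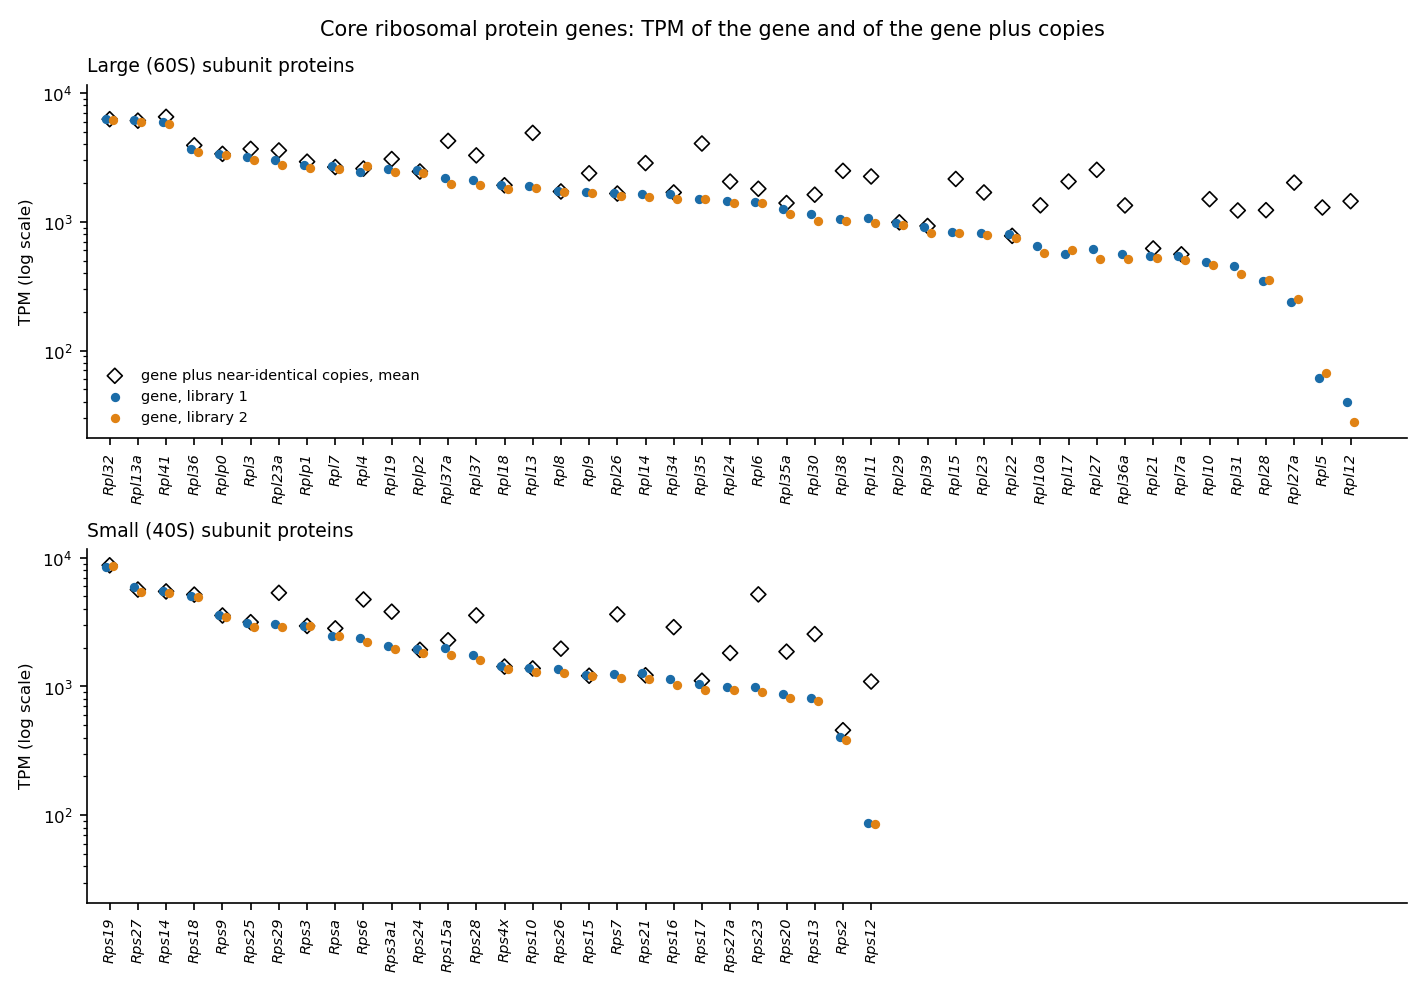
TPM on a log scale of 45 large subunit and 28 small subunit core genes, ordered by mean TPM, with 1 point for each library (blue, library 1; orange, library 2) and an open diamond for the mean TPM of the gene plus its near-identical copies elsewhere. The points run from Rps19 at 8531 TPM down to Rpl12 at 33.9 TPM, while no diamond is below 457 TPM.

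In the large subunit, Rpl41, the shortest product of the set, was among the highest. Its coding sequence on chr10:128548114-128549305 (minus strand, mm10, GENCODE M21) is 78 bases long with its stop codon, shown here since little more than 1 read fits into it.
Rpl41: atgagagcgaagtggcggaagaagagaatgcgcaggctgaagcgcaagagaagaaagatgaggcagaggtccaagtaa
The acidic P stalk, which recruits elongation factors, was high except at its base. Rplp0 had 3337 and 3291 TPM, Rplp1 2743 and 2594 TPM and Rplp2 2513 and 2396 TPM in libraries 1 and 2. Rpl12, which joins the stalk to the ribosomal RNA, had 40.03 and 27.73 TPM. Rplp1 and Rplp2 sit in the ribosome in more copies than the other proteins, yet neither row exceeded that of Rplp0. In the 5S ribonucleoprotein, the particle of 5S rRNA that can bind Mdm2 and so protect p53, Rpl11 had 1062 and 980 TPM, and Rpl5 had 61.4 and 66.6 TPM. Along the peptide exit tunnel, Rpl4 had 2451 and 2723 TPM, Rpl39 912 and 815 TPM and Rpl17 565 and 601 TPM. Around the mouth of the tunnel, where nascent chains meet their first partners, levels ran from Rpl23a (2889 ± 180 TPM) through Rpl19, Rpl26 and Rpl35 to Rpl31 (420 ± 41.5 TPM). The other 32 large subunit genes had a median of 1419 TPM, with Rpl27a the lowest.

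In the small subunit, the 3 proteins that line the mRNA entry channel were Rps9 (3527 ± 86.1 TPM), Rps3 (2950 ± 20.5 TPM) and Rps2 (394 ± 17.4 TPM). At the mRNA exit region, Rpsa, also known as a laminin receptor, had 2469 and 2447 TPM, Rps28 1770 and 1611 TPM and Rps26 1358 and 1263 TPM. Near the decoding site, Rps15 had 1219 and 1203 TPM, Rps27a, made as a fusion to ubiquitin, 996 and 942 TPM, and Rps23 989 and 907 TPM. The 12 body and platform genes had a median of 1883 TPM, with Rps27 the highest. The 10 remaining head genes had a median of 1709 TPM, from Rps19 to Rps12. The median of log2(mean TPM + 1) was 0.21 lower in the large than in the small subunit, with medians of 1463 TPM in the large and 1691 TPM in the small subunit. That gap was small beside the spread within each subunit, 1.53 and 1.28 on the log2 scale.

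The coding sequences of most core genes occur again, in whole or in part, elsewhere in the annotated transcriptome. A copy was counted where a gene outside the set, not overlapping the member, held at least 20% of the 50-base windows of the member's coding sequence and shared at least 25% of its own windows. There were 378 copies, 358 of them annotated as processed pseudogenes and 11 as transcribed processed pseudogenes, and 67 of the 77 core genes had at least 1. For 27 core genes no coding window was unique, and the core median was 7.57% unique. Gm10275, a transcribed processed pseudogene on chr10:29698746-29699380 (minus strand), matched Rpl12, on chromosome 2, at 498 of 498 coding bases. The first 120 of these bases, the same in both, are printed to show that a read from here has no mark of its origin.
Rpl12 and Gm10275: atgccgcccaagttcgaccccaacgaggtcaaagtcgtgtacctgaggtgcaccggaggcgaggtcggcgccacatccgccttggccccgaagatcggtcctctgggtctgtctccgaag
In other pairs a few bases differ. Bases 4 to 123 of the coding sequence of Rps7, a platform protein, and the matching stretch of Gm6472 on chr X are printed next, with the 3 bases of Gm6472 that differ in capitals; over the whole frame 582 of 585 bases were identical.
Rps7: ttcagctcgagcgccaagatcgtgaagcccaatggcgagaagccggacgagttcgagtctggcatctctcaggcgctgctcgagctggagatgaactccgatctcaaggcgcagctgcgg
Gm6472: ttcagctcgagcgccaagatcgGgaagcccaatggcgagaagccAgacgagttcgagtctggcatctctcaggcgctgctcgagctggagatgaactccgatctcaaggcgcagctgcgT

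The copies held many reads. They took 327195 reads in library 1 and 298006 reads in library 2, which is 21.9% and 22.0% of the reads on copies and members together, and 50 of them had 1000 reads or more in both. Gm10275 had 9686 and 8946 reads in libraries 1 and 2, against 514 and 344 for Rpl12. Gm15500 had 14942 and 13647 reads, against 643 and 661 for Rpl5, whose 894 coding bases it matched in full. Copies took 95.7% ± 0.932 of the reads of Rpl12 and its copies, 95.6% ± 0.355 for Rpl5 and 89.2% ± 0.585 for Rps12, whose most read copy, Rps12-ps3, is annotated as protein-coding. They took 78.2% ± 0.445 for Rps23, 77.7% ± 0.0435 for Rpl27a and 73.1% ± 2.35 for Rpl28. In all, copies held more than 50% of the reads for 18 core genes and more than 10% for 42. The most read copy alone outnumbered the gene in both libraries for 15. Each of the 5 lowest core genes had at least 73.1% of its reads on copies, and none of the 10 highest had more than 8.62%. The gene's own reads enter both its rank and this share, so a low row by itself raises the share. Genes of the set were never counted as copies. That leaves out Rps27rt, identical in its coding frame to Rps27, 1 of the 10 highest. Rps27rt took 43.1% of the expected reads of that pair. Whether the reads on copies came from the gene or from the copy was not tested. How firmly the reads were divided also varied. The posterior SD of the read number deposited with each gene had a median of 0.816% and 0.833% of the estimate in libraries 1 and 2, and over the core was largest for Rps12, at 10.7% and 13.0%.

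**Figure D2:**
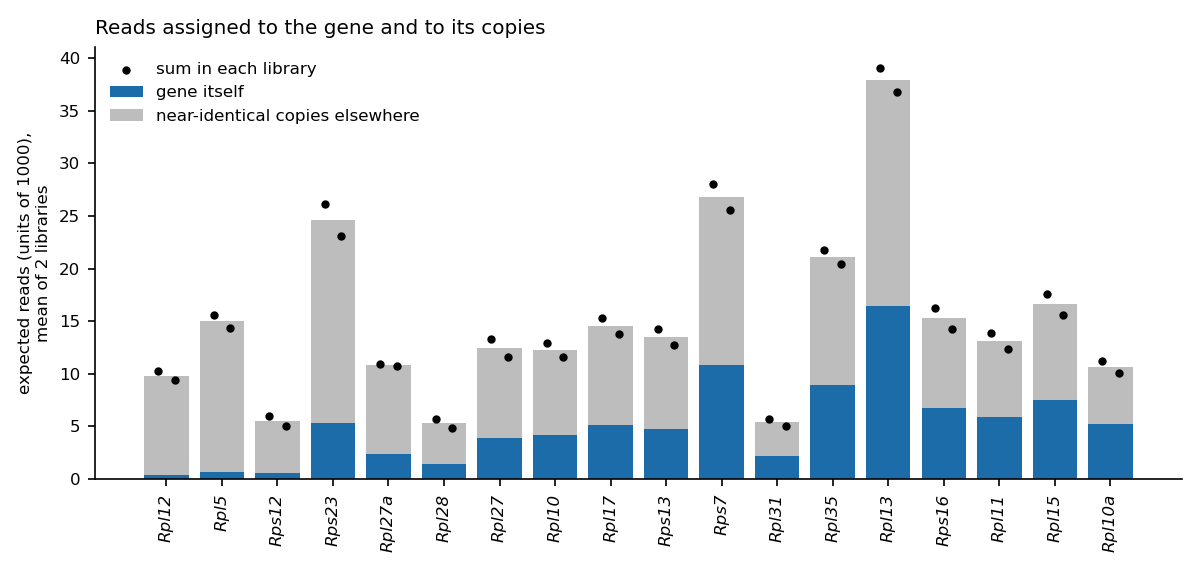
Expected reads (axis in units of 1000 reads), mean of the 2 libraries, on the gene itself (blue) and on its near-identical copies (grey) for the 18 core genes whose copies hold more than 50% of the reads, ordered by that share; black points give the sum in library 1 (left) and library 2 (right). Rpl12, Rpl5 and Rps12 on the left have almost only grey, and Rpl10a on the right is split about evenly at 50.5% on copies.

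With copies added to their gene, the core was more even. This count was chosen after seeing the data. Rpl12 then stood at 1465 and 1422 TPM, Rpl5 at 1308 and 1272 TPM and Rps12 at 1147 and 1036 TPM, all below the single-row core median. The sum for Rps23 was 5188 TPM on average, and that for Rpl27a 2013 TPM. The highest and the lowest sum, Rps19 at 8727 TPM and Rps2 at 457 TPM, differed 19.1-fold, the SD on the log2 scale was 0.90, and 56 of 77 genes lay within 2-fold of the median of 2285 TPM. Paralogues in the set were not added. The sum for Rps27 (5656 TPM) thus leaves out Rps27rt, with an identical frame and 3959 and 3868 TPM in libraries 1 and 2. The highest gene and the 19.1-fold range depend on that choice. In the single libraries the SD of the sums was 0.89 and 0.91. Leaving out Rpl5, Rpl12 and Rps12 in place of adding copies gave an SD of 1.13. The 10 core genes without any copy, among them Rpl32, Rpl4 and Rpl22, ran from 777 to 6258 TPM with an SD of 0.94. They included Rps27, which has no unique coding window, because Rps27rt is a member of the set and was not counted as a copy. Across the 77 genes Spearman's rho between TPM and the share of unique windows was 0.39 for single rows and 0.01 for the sums; genes are not independent samples and share the libraries. The order within groups changed too. Near the decoding site, Rps23 was the lowest of 3 by its own row and the highest by its sum, and at the mouth of the tunnel Rpl35 became the highest at 4051 TPM. Rps2, Rpl7a (559 TPM), Rpl21 (620 TPM) and Rpl22 (777 TPM) were the lowest sums. The gap between subunits stayed in the same direction, with median sums of 2101 TPM in the large and 2826 TPM in the small subunit.

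By TPM, 3 of the 8 paralogue pairs were shared, 2 had a minor paralogue and 3 had almost no paralogue RNA. Shares are the paralogue's percent of the summed TPM of both genes. Rpl36al, a relative of the X-linked Rpl36a, took 46.5% and 46.6% in libraries 1 and 2, with 491 and 449 TPM against 565 and 515 TPM for Rpl36a. The coding frames were identical at 282 of 321 bases and shared no 50-base window, so reads within them can be told apart between these 2 genes. No coding window of either gene was unique in the annotated transcriptome, however. Rpl36a has 2 copies of its own and Rpl36al has 1, and with copies added the paralogue share was 26.4% ± 0.358. In the whole-number table deposited beside the estimates, Rpl36al was the higher gene, with 95 and 92 counts against 6 and 13 for Rpl36a.

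Rpl22l1, the paralogue whose mRNA the Rpl22 protein is known to repress in mouse, had 553 and 524 TPM, against 810 and 744 TPM for Rpl22, a protein needed for the development of alpha-beta T cells. Its share was 40.6% in library 1 and 41.3% in library 2, and adding copies gave 42.4% ± 0.877. Both frames differ widely, with 217 of 286 aligned bases identical.

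Rps27rt had 3959 and 3868 TPM, against 5912 and 5400 TPM for Rps27, a share of 40.1% and 41.7%. The frames of Rps27 (chr3:90212522-90213651, minus strand) and Rps27rt (chromosome 9, minus strand) are identical at 255 of 255 bases, so the division rests on bases outside them, and the posterior SD was 1.45% of the estimate for Rps27 and 1.97% for Rps27rt in library 1. In the whole-number table, Rps27rt had 0 counts in both libraries and Rps27 had 47 and 38. That table held a median of 1.10% and 1.23% of the estimated reads over the core genes. Rps27l, a p53-responsive paralogue, took 3.64% and 3.79% of its pair with Rps27, with 223 and 213 TPM. In the whole-number table Rps27l was the higher gene of this pair, with 286 and 258 counts, a share of 86.5%. The frames are printed with the 61 bases of Rps27l that differ in capitals, to set a pair that reads can separate beside one that they cannot.
Rps27 and Rps27rt: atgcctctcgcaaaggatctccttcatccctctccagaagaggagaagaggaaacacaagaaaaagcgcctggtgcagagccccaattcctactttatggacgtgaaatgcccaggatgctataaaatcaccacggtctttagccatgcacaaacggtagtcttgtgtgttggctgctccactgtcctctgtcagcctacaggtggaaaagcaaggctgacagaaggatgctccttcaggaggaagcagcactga
Rps27l: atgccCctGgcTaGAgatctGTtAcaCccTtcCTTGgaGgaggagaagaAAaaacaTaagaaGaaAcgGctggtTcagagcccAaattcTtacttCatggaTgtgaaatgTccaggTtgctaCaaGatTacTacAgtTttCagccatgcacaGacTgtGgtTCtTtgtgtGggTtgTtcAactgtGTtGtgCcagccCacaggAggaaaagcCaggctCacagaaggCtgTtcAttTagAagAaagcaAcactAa

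Rpl7l1, a nucleolar relative of Rpl7, took 3.93% and 4.25% of its pair, with 110 and 114 TPM against 2696 and 2574 TPM for Rpl7. As a share of expected counts, which are not per length, it took 8.11%. In the whole-number table it was the higher gene, with 444 and 451 counts against 368 and 346 for Rpl7, a share of 55.6%. The last 3 paralogues are known mainly from other tissues. Rpl39l, known from testis, had 3.06 and 4.09 reads, against 6362 and 5371 for Rpl39, which is 0.0537% and 0.0674% of the pair's TPM. Rpl3l, known from heart and skeletal muscle, had 1 read in each library, against 51026 and 45931 for Rpl3. Rpl10l, known from testis, had 0 and 2 reads, against 4512 and 3900 for Rpl10; 0 reads in library 1 allows up to 3 reads or 0.248 TPM, counting error only. The frames of Rpl39 on chromosome X and Rpl39l differ at 23 of 156 bases, in capitals in Rpl39l, and share no 50-base window.
Rpl39: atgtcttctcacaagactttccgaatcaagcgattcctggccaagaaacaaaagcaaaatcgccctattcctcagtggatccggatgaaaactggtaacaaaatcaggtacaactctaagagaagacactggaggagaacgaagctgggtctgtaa
Rpl39l: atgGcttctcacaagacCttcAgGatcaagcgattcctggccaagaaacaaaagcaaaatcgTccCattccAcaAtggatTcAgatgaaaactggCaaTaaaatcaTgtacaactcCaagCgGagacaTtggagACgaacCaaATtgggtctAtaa

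**Figure D3:**
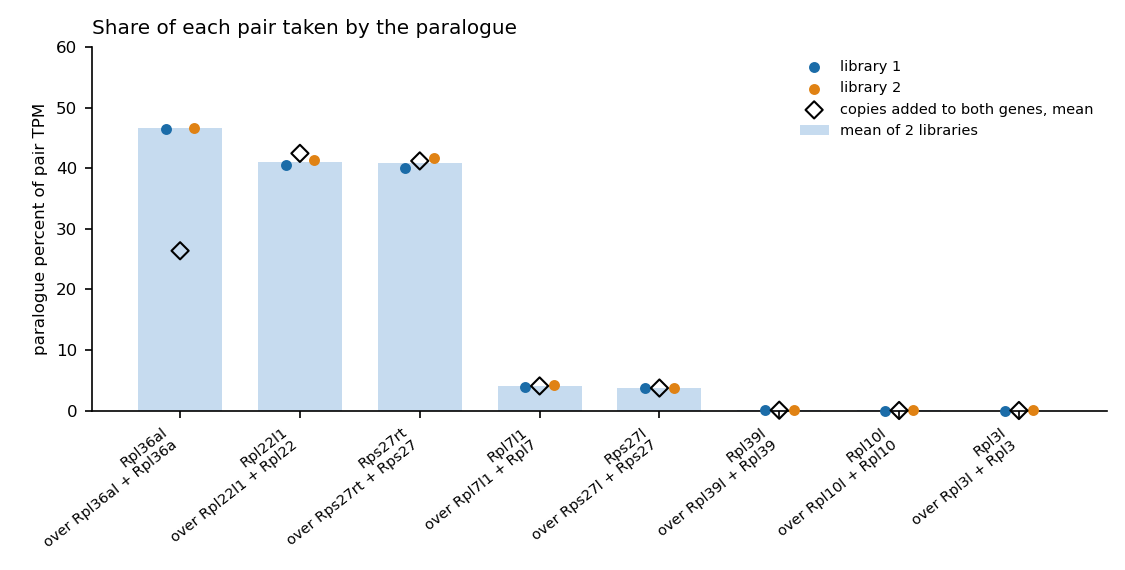
Paralogue percent of the summed TPM of each pair, as bars for the mean of the 2 libraries, points for library 1 (blue) and library 2 (orange), and open diamonds for the mean after near-identical copies were added to both genes. Rpl36al, Rpl22l1 and Rps27rt stand above 40%, Rpl7l1 and Rps27l near 4%, and the other 3 under 0.1%; only the diamond of Rpl36al, at 26.4%, is far from its bar.

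The transcript tables divided each gene among its annotated transcripts. The transcript of highest mean TPM was annotated as protein-coding in 71 of the 86 genes. Among genes at a mean of 100 TPM or more the share was 83.5% of 79 members and 83.8% of 1134 other protein-coding genes. In the other 15 genes, 6 were led by a retained-intron transcript, 5 by a processed transcript and 4 by one annotated for nonsense-mediated decay, the pathway that degrades mRNAs with premature stop codons. Rps16-201, the coding transcript of Rps16, had 11.0 and 11.9 TPM, while Rps16-202 and Rps16-203, both annotated as retained introns, had 418 and 397 TPM and 715 and 626 TPM. Rpsa-206, annotated for decay, had 2194 and 2197 TPM, or 88.9% and 89.8% of Rpsa. Rpl35-203, a processed transcript, had 1470 and 1474 TPM, or 97.9% and 97.7% of Rpl35. In 9 core genes 90% or more of the TPM was on such transcripts, and over the whole core they held 19.1% and 19.4%. The 14 core genes led by them had a median of 40.9% of their reads on copies elsewhere, and 13 of 14 had more than 10%. The 63 core genes led by a coding transcript had a median of 8.62%, and 29 of 63 had more than 10%. With protein-coding transcripts alone, the core SD was 2.35 on the log2 scale, larger than for whole genes. Whether these transcripts were present in the cells was not tested.

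**Figure D4:**
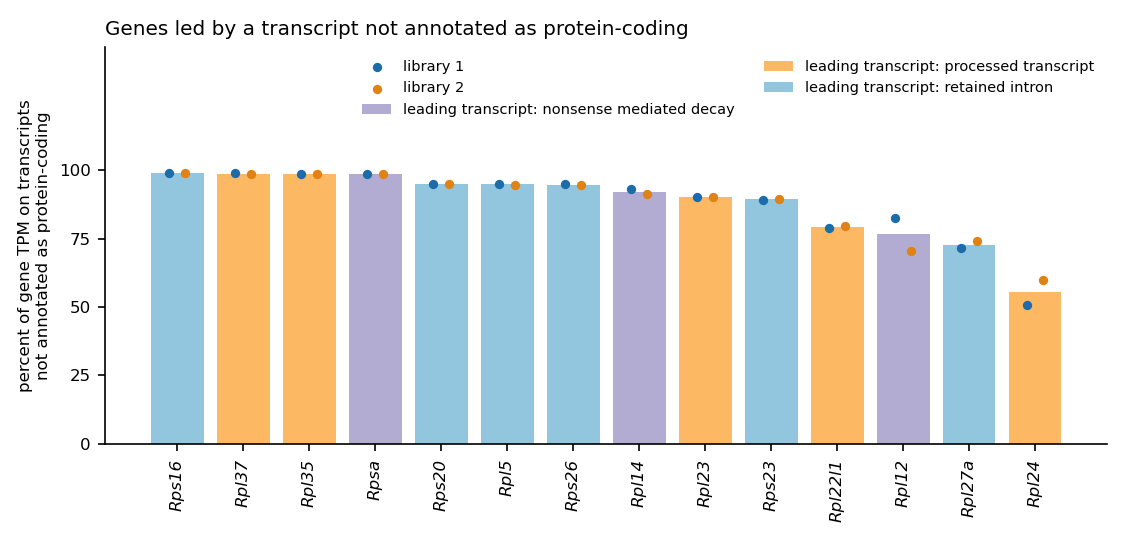
Percent of gene TPM on transcripts not annotated as protein-coding for 14 of the 15 genes led by such a transcript, with bars for the mean, coloured by the annotated type of the leading transcript, and points for library 1 (blue) and library 2 (orange). Rps16, Rpl37, Rpl35 and Rpsa stand above 98% in both libraries, and Rpl12 shows the widest gap between libraries, at 82.6% in library 1 and 70.6% in library 2.

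Start sites were compared with the TOP motif on the DNA strand of the gene. RefSeq windows of GRCm38.p6 were matched by symbol for 57 of the 77 core genes (67 windows). The motif searched was a C followed by 5 or more C or T letters, on the transcript strand only, beginning within 5 bases of the annotated start. It occurred in 22 of 67 core windows, or 32.8%, against 9.12% of all 32851 windows and 5.33% of the 75 windows of mitochondrial ribosomal proteins. With runs of 8 or more letters the shares were 23.9%, 3.71% and 2.67%. A run beginning more than 5 bases before the annotated start was not counted, even where it crossed the start, as in Rpl35 and Rpl7a. All these shares thus depend on where the start is annotated. The 5 longest of the counted runs among the core are printed, 10 bases before to 20 bases from the annotated start on, with the run in capitals.
Rpl27a (chr7:109519185-109519214, plus strand): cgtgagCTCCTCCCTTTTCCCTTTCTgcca
Rpl15 (chr14:18270967-18270996, minus strand): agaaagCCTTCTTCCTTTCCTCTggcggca
Rpl13a (chr7:45128726-45128755, minus strand): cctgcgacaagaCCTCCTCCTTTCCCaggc
Rpl35a (chr16:33056472-33056501, plus strand): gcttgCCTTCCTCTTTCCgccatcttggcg
Rps10 (chr17:27635225-27635254, minus strand): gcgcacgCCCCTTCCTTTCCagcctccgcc
These 5 genes ranged from 246 TPM for Rpl27a to 6043 TPM for Rpl13a. The starts of Rps27 and Rps27rt, whose frames are identical, are printed beside them, with runs of 9 and 6 letters.
Rps27 (chr3:90213629-90213658, minus strand): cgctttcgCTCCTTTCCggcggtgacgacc
Rps27rt (chr9:114982720-114982749, minus strand): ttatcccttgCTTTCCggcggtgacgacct
A run of letters in the genome is a description of the window and no measure of translation, which was not assayed.

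Both libraries came from the same sample, and a binomial test on the reads of each gene compares these libraries, not conditions. Of the 83 members with a summed count of 10 or more, 74 passed an adjusted p of 0.05, against a background of 24.3% of all 17271 tested genes. Library 1 was higher for 72 members (background 11.6%), and library 2 for 2 (background 12.7%). The differences were small. The core median log2 ratio of library 1 over library 2 was 0.12, with 73 of 77 genes above 0, and over all tested genes the median was 0.01. Depth moves with such calls. The core had a median of 18889 summed reads, and of the 2831 other protein-coding genes with 2000 reads or more, at a median of 3631, 43.7% passed, 17.8% with library 1 higher. Across genes, Spearman's rho between the log2 ratio and effective length was -0.25 in the core (n = 77) and -0.08 in those other genes (n = 2831), which share the libraries. The core medians were 0.12 under 400 bases (n = 11), 0.14 from 400 to 600 bases (n = 34), 0.11 from 600 to 1000 bases (n = 27) and 0.06 from 1000 to 2000 bases (n = 5), so the shortest genes did not have the highest median. In the other genes the medians of these length classes were 0.11, 0.09, 0.03 and -0.02. The 78 mitochondrial ribosomal protein genes had a median of 0.05, and 9 of them passed with library 1 higher and 6 with library 2 higher. The part of length and depth in the difference was not tested.

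Rpl12 was the most unequal member, with 514 reads in library 1 and 344 in library 2, a log2 ratio of 0.54 (adjusted p = 2.07e-06, exact binomial test with Benjamini-Hochberg adjustment). Rpl27 (0.29, adjusted p = 2.18e-16), Rpl30 (0.23, adjusted p = 2.99e-17), Rpl10a (0.22, adjusted p = 1.67e-12) and Rpl31 (0.21, adjusted p = 2.2e-05) came next by the same exact test. The 2 members higher in library 2 were Rpl4 (-0.11, adjusted p = 7.73e-29) and Rpl7l1 (-0.11, adjusted p = 0.0481), which have the longest effective lengths of the set at 1479 and 1519 bases. With copies added, the ratio of Rpl12 was 0.09 and that of Rpl27 0.15, the SD of the core ratios was 0.05 in place of 0.08, and 75 of 77 were above 0. The sign turned for Rpl5, at 0.08 with copies and -0.08 without, and for Rpl17, at 0.11 with copies and -0.05 without; neither single-row difference had passed the test. Rpl4, which has no copy, kept -0.11. With a dispersion of 0.01 between libraries in the edgeR exact test no member passed, and 2.85% of all genes did. That dispersion was set, not estimated, and ratios as small as those of the members can hardly pass at it. In the whole-number table no member passed the binomial test either, and 9.95% of all genes did. That table held a median of 1.10% and 1.23% of the core reads in libraries 1 and 2, which leaves little power. Neither outcome decides whether the members differ between the libraries.

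**Figure D5:**
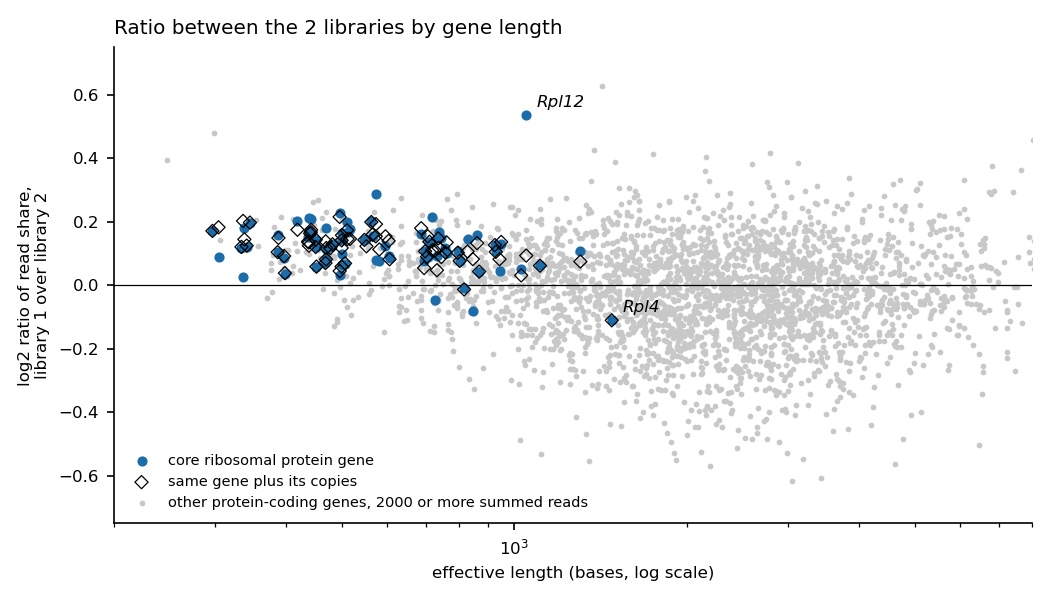
Log2 ratio of the share of reads, library 1 over library 2, against effective length in bases (log scale) for the 77 core genes (blue), the same genes with their copies added (open diamonds) and other protein-coding genes with 2000 or more summed reads (grey; a few lie beyond the axes). Most core points lie between 0 and 0.29; Rpl12 stands out at 0.54 and Rpl4 lies below 0 at -0.11.

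Positions and neighbours were examined for what the members share. The 77 core genes lie on 19 chromosomes, with 14 on chromosome 7 and 4 on chromosome X. Small nucleolar RNA genes, which guide the modification of ribosomal RNA and are mostly released from introns, lie inside 30 of the 86 members, or 34.9%, against 2.01% of protein-coding genes. Rpl4 holds 5 of them, Rpl13a holds 4, and the 86 genes hold 59. Exons of 23 members overlap those of another gene, in 19 on the opposite strand. For the chromosomes and the overlaps the share over all protein-coding genes was not counted, so neither can be called particular to the set. The labels and headers do not state strandedness, so reads in such overlaps are uncertain. The median effective length of the core was 552 bases, against 2091 bases for expressed protein-coding genes.

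Genes that work with these proteins were set beside them. Ribosomal proteins under other names, here Fau (1832 ± 33.6 TPM) and Rack1 (1307 ± 24.6 TPM), lay well inside the range of the core. All 78 mitochondrial ribosomal protein genes reached 1 TPM, with a median of 56.7 TPM, from Mrpl33 (312 ± 8.77 TPM) to Mrps30 (2.08 ± 0.283 TPM), and their SD on the log2 scale was 1.15. Elongation factors ran from Eef1a1 (8054 ± 51.2 TPM), which delivers tRNA to the ribosome, to Eef1e1 (35.5 ± 3.42 TPM), and initiation factors from Eif1 (1816 ± 47.7 TPM) to Eif3b (22.9 ± 1.82 TPM). Other known TOP mRNAs ran from Tpt1 (1478 ± 16.4 TPM) to Eif3f (35.1 ± 2.09 TPM). All 24 assembly factors reached 1 TPM and none 1000 TPM, from nucleolin, Ncl (289 ± 10.2 TPM), to Rrs1 (2.99 ± 0.474 TPM), which helps bring the 5S particle into the large subunit. Chaperones dedicated to single ribosomal proteins ran from Bccip (144 ± 6.15 TPM), whose yeast relative serves Rpl23, to Tsr2 (11.8 ± 0.226 TPM), which serves Rps26. Among regulators, Trp53 was highest (186 ± 15.8 TPM) and Rptor, the mTOR complex subunit, lowest (5.46 ± 0.629 TPM). Rps19bp1, which binds Rps19, was the lowest member above 1 TPM at 14.3 and 14.0 TPM.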

How the data were processed

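Polyadenylated RNA was sheared to 100 to 300 bases, per the labels' protocols. Per the file headers and notes, the authors deposited, on mm10 with GENCODE M21, expected counts (estimated reads), TPM and FPKM per gene and, per transcript, TPM and its percent of the gene. The deposited effective lengths and posterior SDs are used as scores in bases or reads. A whole-number count table on GENCODE M4 was also deposited by the authors. No label or header names the quantifier, the counter, the filters or the strandedness.

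The libraries held 15076048 and 14635787 reads after rounding expected counts per gene. As both are technical, p-values set the difference between these libraries against counting error only, without an estimate of the spread between libraries. Intervals and limits also cover counting error only. Levels used log2(TPM + 1). Libraries were compared, in place of a replicate test, with a two-sided exact binomial test on rounded reads. It covered genes with a summed count of 10 or more, with Benjamini-Hochberg adjustment over all of them. The test was tried first on data simulated with counting error alone. Those data hold no further spread between libraries and no error in dividing reads among genes. Coding sequences came from GENCODE M21, and start windows from RefSeq GRCm38.p6. Python 3.11.15, numpy 2.4.6, pandas 2.3.3, scipy 1.17.1 and matplotlib 3.10.9 were used, with R 4.3.3, edgeR 4.0.16 and DESeq2 1.42.0 for alternative scalings. Any member could be named. Named in any case were the highest and lowest of each role group and list, every paralogue pair, the 10 highest and 5 lowest core genes, and up to 5 genes each way by library ratio. Some genes this rule would name are not reported here and are left out of the plots with gene names, but stay in all counts and medians. Members and lists were chosen with earlier results of these data known. Rps4l is annotated as a pseudogene and was not a member.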

Additional observations from a re-analysis of the deposited data

How the results depend on the processing

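With 1 animal, nothing here measures biological variation, and a 50-base read cannot separate identical stretches. No paired analysis was possible because there is only 1 group. The copy sums, protein-coding transcripts alone and the set without Rpl5, Rpl12 and Rps12 were chosen after seeing the data. The members' share of reads, 7.48% on average, was 7.23% to 7.73% with either library left out, 16.1% as a share of TPM, 0.566% in the whole-number table and 9.59% with copies. The core median of 1504 TPM was 1501 to 1503 with either library left out, 1517 from FPKM, 1539 with ribosomal proteins under other names added, 1893 over the 2 genes with whole expected counts, 1194 with coding transcripts only, 2285 with copies and 74.4 in the whole-number table. The core SD of 1.44 was 1.43 to 1.46 with either library left out, 1.41 from CPM, 1.87 in the whole-number table, 0.19 over the 2 genes with whole counts, 2.35 with coding transcripts only, 1.13 without Rpl5, Rpl12 and Rps12, and 0.90 with copies (0.90 and 0.91 at a shared part of 10% and 50%). The large minus small subunit median of -0.21 was -0.27 to -0.15 with either library left out, -0.44 with means, -0.49 in the whole-number table, -0.43 with copies and -0.51 with coding transcripts. As shares of expected counts, Rpl7l1 took 8.11%, Rpl36al 49.0%, Rps27l 5.52% and Rps27rt 43.1%. In the whole-number table the shares were 0.521% for Rpl3l, 55.6% for Rpl7l1, 2.21% for Rpl10l, 32.3% for Rpl22l1, 90.8% for Rpl36al, 12.2% for Rpl39l, 86.5% for Rps27l and 0% for Rps27rt. The paralogue was thus the higher gene of its pair for Rpl7l1, Rpl36al and Rps27l in that table, and the lower one by TPM. With copies, Rpl22l1 took 42.4% and Rpl36al 26.4%. The number of members that differed between libraries, 74, was 0 in the whole-number table and 0 in the edgeR exact test at a set dispersion of 0.01. Both settings have little power for the small ratios of the members. The cause of these changes was not tested.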

Other observations

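The whole-number gene table on GENCODE M4 held far fewer reads for the ribosomal protein genes than the estimates on M21. Their median count there was 1.10% of the estimate in library 1 and 1.23% in library 2, over the 77 core genes. Over all genes with an estimate of 200 to 600 reads the median was 44.8% and 44.6%, and over those with 10000 reads or more it was 4.86% and 4.94%. The largest count per base of gene length, among genes of 300 bases or more, was 2.57 and 2.51. The table summed to 3474097 and 3471321 counts over matched genes. Which step of its making lowered the counts of abundant genes was not tested.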
